A study of Mus musculus with 12 samples.

Results

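Myc and 7 amino acid transporter genes (Slc7a5, Slc3a2, Slc1a5, Slc7a1, Slc7a6, Slc38a1 and Slc38a2) were followed in natural killer (NK) cells with and without the microRNA miR-142. These 8 genes, of 19938 genes with a probe set carrying 1 gene symbol, were chosen from their log2 signals in these same arrays. Their differences are therefore given as a description, with standard errors and 95% intervals and without p-values. All 8 passed the filter on low signal that left 11963 genes.

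Myc is a transcription factor that pairs with Max, binds the E-box sequence CACGTG and drives genes of ribosome production, nucleotide synthesis and nutrient uptake in growing lymphocytes. Amino acid transporters of the plasma membrane supply leucine, glutamine and arginine, and leucine and arginine inside the cell are sensed by the kinase complex mTORC1. In activated mouse NK cells, amino acid uptake through Slc7a5 is known to be needed to keep up the level of Myc protein. Protein and uptake were not measured in the arrays described here.

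The cells were CD3-negative, NK1.1-positive cells sorted from spleen or bone marrow of C57BL6 mice aged 7 to 10 weeks, wild type (WT) or knockout (KO) for miR-142 and matched for age and sex. There were 4 groups, WT spleen, KO spleen, WT bone marrow and KO bone marrow, with 3 Affymetrix arrays each, called biological replicates in the labels. No other treatment is named, and the labels do not say whether 1 array holds 1 mouse or several, nor which cells of the mouse lack miR-142. The array numbers form 2 runs, and the only WT bone marrow array in the run that holds all 3 KO bone marrow arrays is replicate 1. Array run was a term in every difference below, so a difference is not exactly that of the group means.

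The missing microRNA gives 2 mature strands, shown because they define the genotype. In RefSeq's tables for build GRCm38.p6 the 5p strand lies at chr11:87756867-87756887 and the 3p strand at chr11:87756903-87756925, both on the plus strand. They are written 5′ to 3′, with the seed, bases 2 to 8, in capitals.
mmu-miR-142a-5p: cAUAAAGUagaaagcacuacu
mmu-miR-142a-3p: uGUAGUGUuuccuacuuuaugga
Target sites for these seeds were not searched for here.

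The log2 signal of the Mir142 probe set was 6.77 to 7.58 in WT spleen and 7.10 to 8.25 in WT bone marrow. It was 4.05 to 4.59 in KO spleen and 4.26 to 4.70 in KO bone marrow, so no KO array reached a WT array. All 12 listed NK cell markers were above the filter, with a mean log2 signal between 11.25 and 11.70 in every array. Other marker lists differed between groups. The 8 of 13 granulocyte markers above the filter averaged 5.79 to 6.40 in WT spleen, 6.31 to 7.07 in KO spleen, 8.0 to 8.41 in WT bone marrow and 6.68 to 7.49 in KO bone marrow. Ltf, Cxcr2, Mmp8, Mmp9 and Ly6g were among those below it. The 31 cell cycle genes averaged 6.46 to 6.95, 6.82 to 7.19, 7.71 to 8.51 and 6.85 to 8.38 in the same order of groups. The 8 of 10 T cell markers above the filter averaged 7.05 to 7.16, 6.74 to 6.98, 7.70 to 7.83 and 6.71 to 6.96, with Cd4 and Cd8b1 below it. Although the sort took CD3-negative cells, Cd3d signal fell in KO bone marrow, with a difference of -3.14 ± 0.26 (limma, adjusted p = 2.14e-05). Cd3g, Cd28, Cd3e and Cd247 also passed as lower there. In spleen Cd3d averaged 7.61 in WT and 6.40 in KO and passed as lower, as did Cd28 and Cd247. The other CD3 chains went the other way on average, Cd3e from 7.10 to 7.59 and Cd3g from 6.95 to 7.26, and did not pass. The 7 of 15 monocyte and dendritic cell markers above the filter averaged 7.66 to 8.13 in WT spleen, 8.30 to 8.47 in KO spleen, 7.62 to 7.96 in WT bone marrow and 8.27 to 8.40 in KO bone marrow, so the list mean was higher in every KO array of each tissue. Its genes went both ways: in KO spleen H2-Aa, Cd74, H2-Ab1 and Itgax rose, and Ccr2 and Ms4a6c fell. Csf1r, Siglech, Flt3, Xcr1 and Clec9a were below the filter. The 5 of 6 erythroid markers above it averaged 6.40 to 6.57, 6.90 to 6.95, 6.70 to 7.09 and 6.61 to 6.67 in the same order, apart between genotypes in both tissues, with Klf1 below it. Only 2 of them moved by much: Car1 averaged 5.32, 6.99, 6.91 and 5.41, and Car2 9.26, 9.99, 9.51 and 10.13. The group means of Alas2, Epor and Slc4a1 lay between 5.68 and 6.17. The part of these cells in the results below was not tested. Some fits below hold the granulocyte or cell cycle level as a covariate, but both levels moved with the groups, so these fits cannot decide it. In bulk RNA fewer cells of a type and less RNA per cell cannot be told apart.

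**Figure D1:**
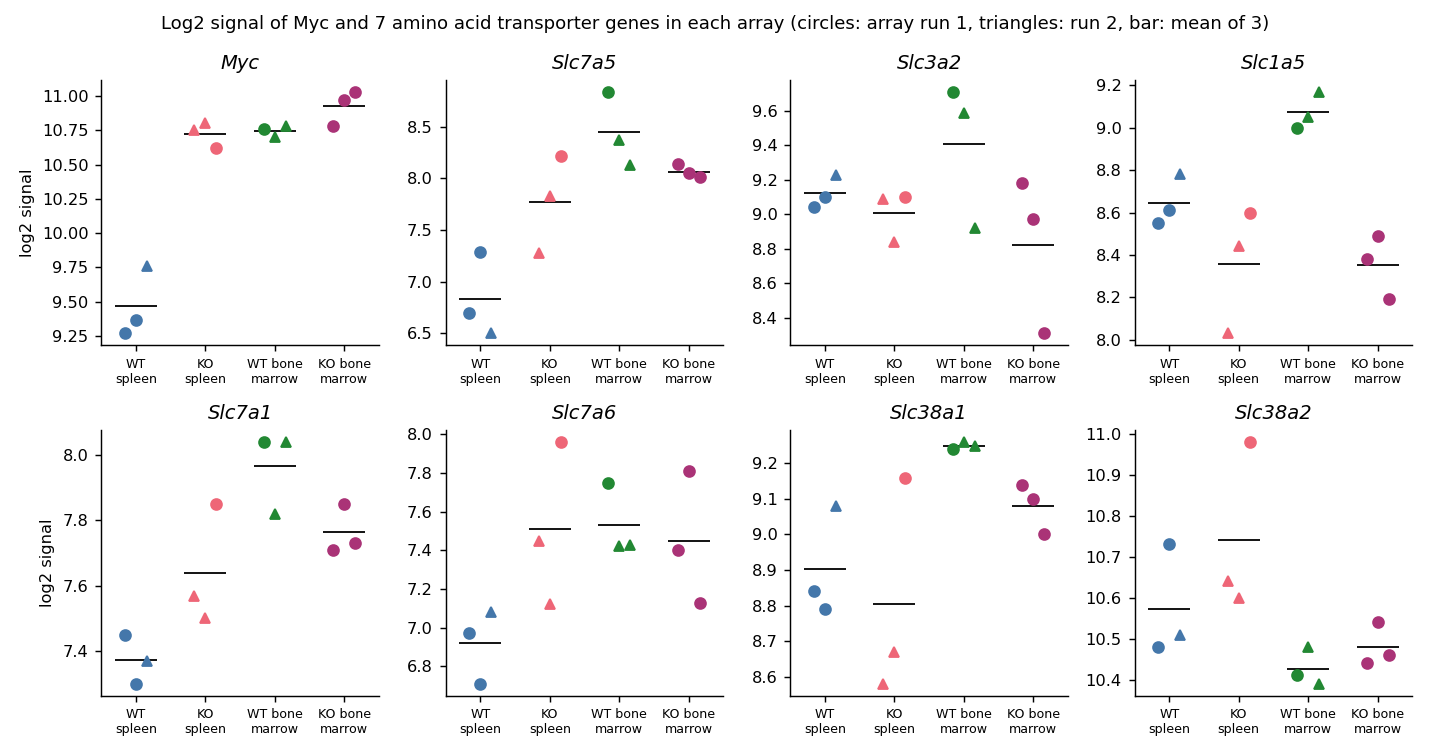
Log2 signal (vertical axis, a separate scale for each gene) of the 8 genes in the 12 arrays, by group along the horizontal axis, with a bar at the mean of 3 arrays; circles are arrays of the first run and triangles of the second. Myc in the 3 WT spleen arrays, 9.27 to 9.76, lies below all the others, and Slc7a5 is highest on average in WT bone marrow.

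Myc had 1 low group and 3 high ones. In WT spleen its log2 signal was 9.27, 9.37 and 9.76, and in KO spleen it was 10.75, 10.80 and 10.62. In bone marrow it was 10.76, 10.70 and 10.78 in WT and 10.78, 10.97 and 11.03 in KO. WT spleen lay apart from every other group, KO spleen and WT bone marrow overlapped, and the lowest KO bone marrow array met the highest WT bone marrow array at 2 decimals. In spleen the KO was higher by 1.20 ± 0.12 (SE, 95% interval 0.94 to 1.45, n = 3 arrays per group), a 2.29-fold difference, and 108 of the 11963 genes had a larger value. Within the first run the difference was 1.30 and within the second it was 1.02.

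In bone marrow the Myc signal of the KO was higher by 0.31 ± 0.13 (95% interval 0.02 to 0.59), a 1.24-fold difference. Within the first run, against its single WT bone marrow array, the difference was 0.17. Between the tissues, WT bone marrow was above WT spleen by 1.22 ± 0.12 (0.96 to 1.48), while KO bone marrow was above KO spleen by 0.33 ± 0.13 (0.04 to 0.62). The spleen difference between genotypes and the tissue difference in WT share the WT spleen arrays, in which Myc was low. With the first array of WT bone marrow left out, the bone marrow difference was 0.48, and with the granulocyte marker level as a covariate it was 0.15.

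Slc7a5 is the light chain of LAT1, an exchanger that brings in leucine and other large neutral amino acids. Its log2 signal was 6.70, 7.29 and 6.50 in WT spleen and 7.28, 7.83 and 8.22 in KO spleen. It was 8.84, 8.37 and 8.13 in WT bone marrow and 8.14, 8.05 and 8.01 in KO bone marrow. In both tissues the genotypes overlapped in 1 array of each, by 0.01 at 2 decimals, whereas WT bone marrow lay wholly above WT spleen. The KO was higher in spleen by 1.14 ± 0.17 (95% interval 0.76 to 1.52, 2.20-fold) and lower in bone marrow, with a difference of -0.77 ± 0.19 (-1.19 to -0.35, 1.71-fold). Within the run that holds arrays of both genotypes in bone marrow the difference was also -0.77, against the single WT array there, and with no run in the model it was -0.38.

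WT bone marrow exceeded WT spleen in Slc7a5 signal by 1.81 ± 0.17 (1.43 to 2.19, 3.50-fold), a value above which only 48 of the 11963 genes lay. In KO the tissue difference was -0.10 ± 0.19 (-0.52 to 0.32), and it was 0.29 with no run in the model. The difference between the 2 genotype effects, bone marrow minus spleen, was -1.91 ± 0.28 (-2.51 to -1.31), and 16 genes had a lower value.

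Slc3a2 is the heavy chain (CD98) that carries Slc7a5 and Slc7a6 to the cell surface. Its log2 signal was 9.04, 9.10 and 9.23 in WT spleen and 9.09, 8.84 and 9.10 in KO spleen. In bone marrow it was 9.71, 9.59 and 8.92 in WT and 9.18, 8.97 and 8.31 in KO. The genotypes overlapped in both tissues, and each bone marrow group spread more widely than either spleen group. The difference was -0.06 ± 0.24 in spleen (95% interval -0.58 to 0.45) and -0.68 ± 0.26 in bone marrow (-1.25 to -0.11). The bone marrow difference was -0.33 with the cell cycle gene level as a covariate. The tissue difference was 0.33 ± 0.24 in WT and -0.29 ± 0.26 in KO, and the WT value was -0.51 with that covariate.

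Slc7a6 (y+LAT2), a second light chain of CD98 that exchanges arginine and glutamine, had log2 signals of 6.97, 6.71 and 7.08 in WT spleen and 7.45, 7.12 and 7.96 in KO spleen. In bone marrow it had 7.75, 7.42 and 7.43 in WT and 7.40, 7.81 and 7.13 in KO. All other groups lay above WT spleen, and these 3 overlapped one another. The KO difference was 0.67 ± 0.21 in spleen (95% interval 0.21 to 1.13) and -0.26 ± 0.23 in bone marrow (-0.77 to 0.26). The spleen value was 1.12 within the first run and 0.20 within the second. WT bone marrow was above WT spleen by 0.70 ± 0.21, against -0.23 ± 0.23 in KO.

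The spacing of light and heavy chain within an array describes how unevenly the 2 signals moved, and it is no ratio of molecules. Slc7a5 minus Slc3a2 was -2.29 ± 0.46 (SD, n = 3) in WT spleen, -1.24 ± 0.50 in KO spleen, -0.96 ± 0.23 in WT bone marrow and -0.76 ± 0.40 in KO bone marrow. The single arrays overlapped, since WT spleen 2 and KO spleen 1 were both at -1.81. Slc7a6 minus Slc3a2 was -2.20 ± 0.17, -1.51 ± 0.32, -1.87 ± 0.35 and -1.38 ± 0.35 in the same order, closer to 0 in KO than in WT on average in both tissues.

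Slc1a5 (ASCT2), a sodium-dependent exchanger of glutamine and other neutral amino acids, had log2 signals of 8.55, 8.61 and 8.78 in WT spleen and 8.03, 8.44 and 8.60 in KO spleen. In bone marrow it had 9.0, 9.05 and 9.17 in WT and 8.38, 8.49 and 8.19 in KO. WT bone marrow lay above all other arrays, and the KO groups of both tissues overlapped. The KO difference was -0.28 ± 0.15 in spleen (95% interval -0.61 to 0.05) and -0.73 ± 0.17 in bone marrow (-1.10 to -0.37, 1.66-fold), the latter -0.72 with no run in the model. The spleen difference was 0.02 within the first run and -0.54 within the second. In bone marrow the estimates of Slc1a5 and Myc thus had opposite signs. In spleen the sign of Slc1a5 differed between the runs and its interval spanned both signs.

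Slc38a1 (SNAT1) and Slc38a2 (SNAT2) are sodium-coupled importers of glutamine and other small neutral amino acids. Slc38a1 had log2 signals of 8.84, 8.79 and 9.08 in WT spleen, 8.58, 8.67 and 9.16 in KO spleen, 9.24, 9.26 and 9.25 in WT bone marrow and 9.14, 9.10 and 9.0 in KO bone marrow. The bone marrow genotypes were apart by little, and the spleen genotypes overlapped. The KO difference was -0.07 ± 0.15 in spleen (95% interval -0.39 to 0.25) and -0.23 ± 0.16 in bone marrow (-0.58 to 0.13). A second, dimmer Slc38a1 probe set did not separate the bone marrow genotypes, with 6.89, 6.67 and 7.25 in WT and 6.35, 6.88 and 6.89 in KO. Slc38a2 had 10.48, 10.73 and 10.51 in WT spleen, 10.64, 10.60 and 10.98 in KO spleen, 10.41, 10.48 and 10.39 in WT bone marrow and 10.44, 10.54 and 10.46 in KO bone marrow. Its genotypes overlapped in both tissues, with differences of 0.22 ± 0.11 in spleen (-0.03 to 0.46) and -0.04 ± 0.13 in bone marrow (-0.31 to 0.24). Of the 8 genes, Slc38a2 alone had a negative tissue difference in WT, -0.10 ± 0.11, which was above 0 in 3 alternative fits, and in KO it was -0.35 ± 0.13 (-0.63 to -0.08).

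Slc7a1 (CAT1), a carrier of arginine and lysine, had log2 signals of 7.45, 7.30 and 7.37 in WT spleen and 7.57, 7.50 and 7.85 in KO spleen. It had 8.04, 7.82 and 8.04 in WT bone marrow and 7.71, 7.85 and 7.73 in KO bone marrow. WT spleen was below every other group, and the bone marrow genotypes overlapped. The KO difference was 0.31 ± 0.11 in spleen (95% interval 0.08 to 0.55) and -0.30 ± 0.12 in bone marrow (-0.57 to -0.04). WT bone marrow was above WT spleen by 0.64 ± 0.11 (0.40 to 0.88), and KO bone marrow differed from KO spleen by 0.02 ± 0.12.

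**Figure D2:**
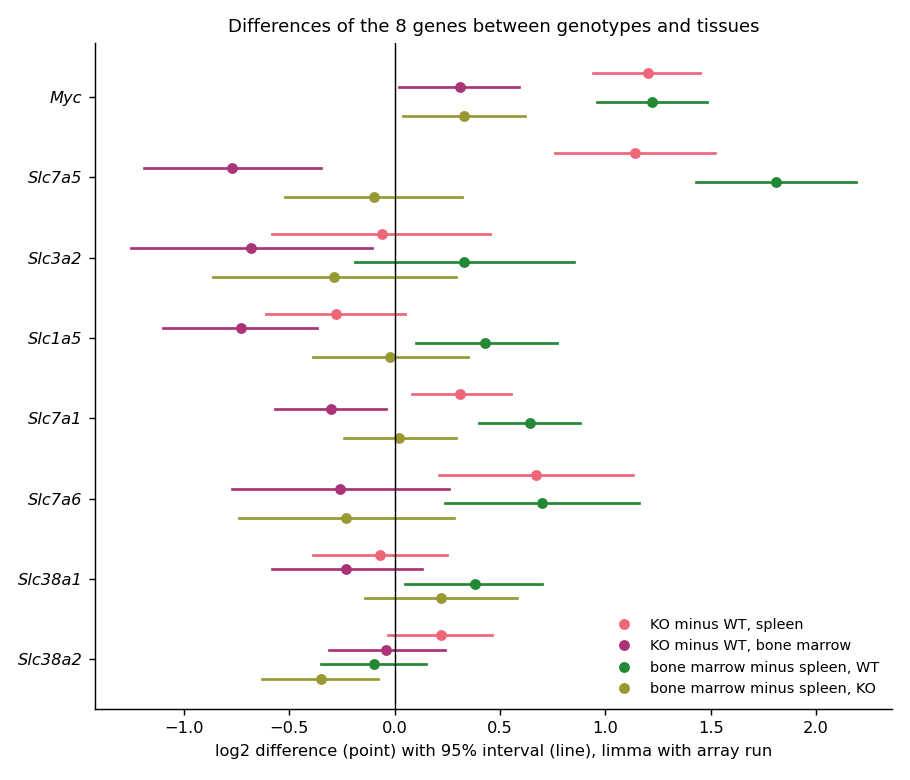
Log2 differences of the 8 genes (points) with 95% intervals (lines) on the horizontal axis, for 4 comparisons of groups of 3 arrays, from limma with array run in the model. Slc7a5 is at 1.14 between genotypes in spleen and at -0.77 in bone marrow, while Myc is above 0 in all 4 comparisons.

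Read across the 8 genes, the KO-minus-WT difference was positive for 5 and negative for 3 in spleen, with a median of 0.26, and positive for 1 (Myc) and negative for 7 in bone marrow, with a median of -0.28. The median over all tested genes was -0.01 in each. In limma with Benjamini-Hochberg adjustment over all tested genes, Myc and Slc7a5 were above the threshold as higher in KO spleen and none of the 8 as lower. Of all genes tested, 9.11% passed in spleen, 5.48% as higher and 3.63% as lower. In bone marrow Slc7a5 and Slc1a5 passed as lower in KO and none as higher, where 8.65% of all genes passed, 3.92% as higher and 4.73% as lower. The genotypes had no overlap between arrays for 3 members in spleen (28.0% of all genes) and for 3 in bone marrow (34.2%). Since these contrasts served to choose the genes, nothing is read from the counts.

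The call of Myc in spleen held in all 24 alternative fits, with values from 1.13 to 1.36. That of Slc7a5 in spleen held in 22 and in bone marrow in 14, and that of Slc1a5 in bone marrow in 21. The Slc7a5 call in bone marrow was lost, among others, with no run in the model and when KO spleen 3, WT bone marrow 1 or 2, or KO bone marrow 2 or 3 was left out. The Slc1a5 call was lost with the granulocyte level as a covariate (-0.70 ± 0.33), without WT bone marrow 1 (-0.84 ± 0.23) and without KO bone marrow 3. Myc, Slc7a5 and Slc1a5 were chosen from these same arrays, which the alternative fits reuse. How often their calls held therefore describes only the dependence on settings, and no support for the calls is read from it.

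The KO effect in bone marrow minus that in spleen was negative for all 8 genes, with a median of -0.62 against -0.01 over all tested genes. It was -0.89 ± 0.19 for Myc, -0.93 ± 0.34 for Slc7a6, -0.62 ± 0.17 for Slc7a1 and -0.62 ± 0.38 for Slc3a2. The values of Slc1a5, Slc38a2 and Slc38a1 were smaller in size, -0.45 ± 0.24, -0.25 ± 0.18 and -0.16 ± 0.24. None of the 8 passed in limma after adjustment, where 0.00836% of all genes passed. An unadjusted limma p under 0.05 was found for 4 of the 8 and for 9.13% of all genes. Since the 8 were chosen from these values, nothing is read from that count. Without KO spleen 3 the Slc38a1 value was 0.30. The Slc3a2 value was -0.06 with the cell cycle level as a covariate, and that of Slc7a6 ran from -2.09 with the granulocyte level as a covariate to -0.51 without KO spleen 3.

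Between tissues in WT cells, Myc, Slc7a5 and Slc7a1 passed as higher in bone marrow and none as lower, where 5.37% of all genes passed, 4.34% as higher and 1.04% as lower. For 6 of the 8 genes every WT bone marrow array exceeded every WT spleen array, and 31.6% of all genes had groups that did not overlap. The granulocyte and T cell levels given above were also higher in every WT bone marrow array than in any other, and the cell cycle level was higher there than in any spleen array. With the granulocyte level as a covariate none of the 3 calls remained, nor any other call among all tested genes. The Myc difference was then 1.49 ± 0.38 and that of Slc7a5 was 1.23 ± 0.54. In KO cells none of the 8 passed between tissues in limma, 2 had an unadjusted p under 0.05, and only Slc38a2 had groups that did not overlap. Of all genes 0.318% passed there, 0.092% as higher and 0.226% as lower. An unadjusted p under 0.05 was found for 9.25% of all genes, and 16.3% had groups that did not overlap.

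Some replicates stood at the edge of their group for several of the genes at once. KO spleen 3, the only KO spleen array of the first run, was the highest of its group for 7 of the 8 genes and the lowest for Myc. KO bone marrow 3 was the lowest of its group for 5 genes and the highest for Myc. Over the 12 deviations from group means, which share array run and normalization, Slc7a1 and Slc7a6 varied together (Pearson r = 0.80), as did Slc1a5 and Slc38a1 (0.78). Slc3a2 varied with the cell cycle mean (0.80), whereas Myc and Slc7a5 gave -0.42 and Myc and the cell cycle mean -0.51. Other pairs were weaker: Slc7a5 and its heavy chain Slc3a2 gave 0.29, and Slc3a2 and Slc1a5 gave 0.09. The strongest values were picked from all pairs, and no matching value over all genes is given, so nothing is read from them.

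**Figure D3:**
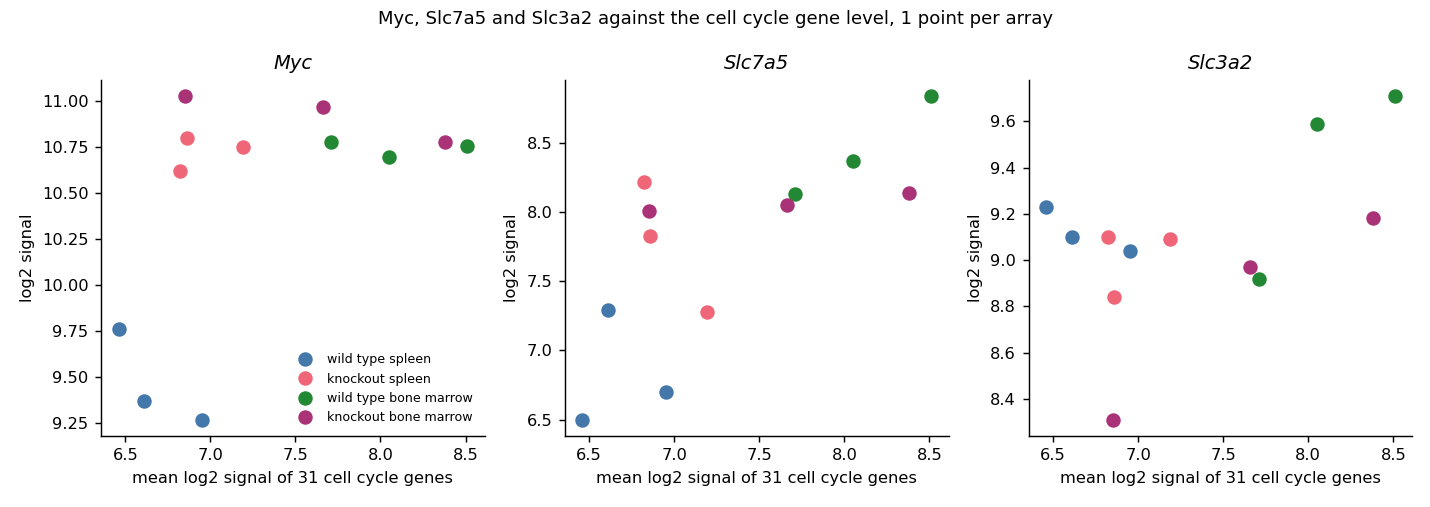
Log2 signal of Myc, Slc7a5 and Slc3a2 (vertical axes) against the mean log2 signal of 31 cell cycle genes (horizontal axis), 1 point per array, coloured by group. KO spleen, at a cell cycle level of 6.82 to 7.19, has Myc signals of 10.62 to 10.80, and WT bone marrow, at a level of 7.71 to 8.51, has 10.70 to 10.78.

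Myc's network and its reported targets were read from lists of genes that exclude the 8. Of all tested genes 5.48% were called higher and 3.63% lower in KO spleen, and 3.92% and 4.73% in KO bone marrow. Of the 10 tested partners of the Myc and Max network, 1 rose in KO and none fell in either tissue. It was Mxd4, which pairs with Max and represses E-box genes. Its log2 signal was 8.63, 8.96 and 8.77 in WT spleen against 9.62, 10.11 and 9.77 in KO spleen, and 8.44, 8.83 and 8.63 in WT bone marrow against 9.81, 9.45 and 9.45 in KO bone marrow. The genotypes did not overlap in either tissue, and Mxd4 rose by 1.00 ± 0.16 in spleen (limma, adjusted p = 0.00247) and 1.01 ± 0.18 in bone marrow (adjusted p = 0.00505). The spleen call was lost with the granulocyte covariate and the bone marrow call without WT bone marrow 1. Max, named after its values were seen, averaged between 10.50 and 10.68 in the 4 groups and did not pass.

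Of 28 genes reported to be induced by Myc, all tested, 5 rose in KO spleen and none fell, with a list median of 0.17. Nme1, a nucleoside diphosphate kinase, rose by 0.63 ± 0.12 (limma, adjusted p = 0.00587), and Cdk4, a kinase of the cell cycle's first phase, by 0.63 ± 0.11 (adjusted p = 0.0045). Gnl3, the nucleolar protein nucleostemin, rose by 0.62 ± 0.12 (adjusted p = 0.00639), and Pa2g4, a ribosome-associated protein, by 0.50 ± 0.11 (adjusted p = 0.0109). Cdk4 was 9.36, 9.35 and 9.28 in WT spleen and 10.07, 9.69 and 10.02 in KO spleen, with no overlap. Of all tested genes 5.48% were called higher in KO spleen, and their median difference was -0.01. All 5 calls of the list were lost with the granulocyte covariate, with which most calls over all tested genes were lost too. The granulocyte level was 5.79 to 6.40 in WT spleen and 6.31 to 7.07 in KO spleen, so this covariate could hardly be told from genotype. Whether the Myc level bears on these genes was not tested.

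In bone marrow 2 of the 28 fell in KO and none rose, with a list median of -0.23. Of all tested genes 4.73% were called lower in KO bone marrow and 3.92% higher. Tfrc, the transferrin receptor, fell by 0.56 on the log2 scale, with a difference of -0.56 ± 0.15 (limma, adjusted p = 0.0428). Gnl3, which rose in spleen, had a difference of -0.47 ± 0.13 (adjusted p = 0.0487). Gnl3 was 8.89, 8.78 and 8.61 in WT bone marrow and 8.23, 8.56 and 8.53 in KO bone marrow, against 7.87, 7.98 and 7.60 in WT spleen and 8.22, 8.40 and 8.46 in KO spleen. Its KO arrays therefore lay between those of the WT tissues. Both bone marrow calls were near the threshold: Tfrc held in 6 of 24 alternative fits and Gnl3 in 7.

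Between WT bone marrow and WT spleen 20 of the 28 rose and none fell, with a list median of 0.59. Of all tested genes 4.34% were called higher in WT bone marrow and 1.04% lower. Rrs1, a ribosome assembly factor, rose by 1.33 ± 0.21 (limma, adjusted p = 0.00592), from 6.80, 6.80 and 6.81 in WT spleen to 8.09, 8.03 and 8.25 in WT bone marrow. Srm, spermidine synthase, rose by 1.27 ± 0.29 (adjusted p = 0.0291), Tfrc by 1.19 ± 0.14 (adjusted p = 0.00115) and Pa2g4 by 1.14 ± 0.11 (adjusted p = 0.000553). Of the 31 cell cycle genes, 20 also rose in this comparison, as did 7 of the 8 granulocyte markers tested. None of the 20 calls remained with the granulocyte or the cell cycle level as a covariate. Neither level overlapped between the WT tissues, so these covariates could hardly be told from tissue. Of the 643 genes called over all tested genes few or none remained, so the loss was not particular to the 20. KO bone marrow and KO spleen differed for none of the 28 after adjustment.

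**Figure D4:**
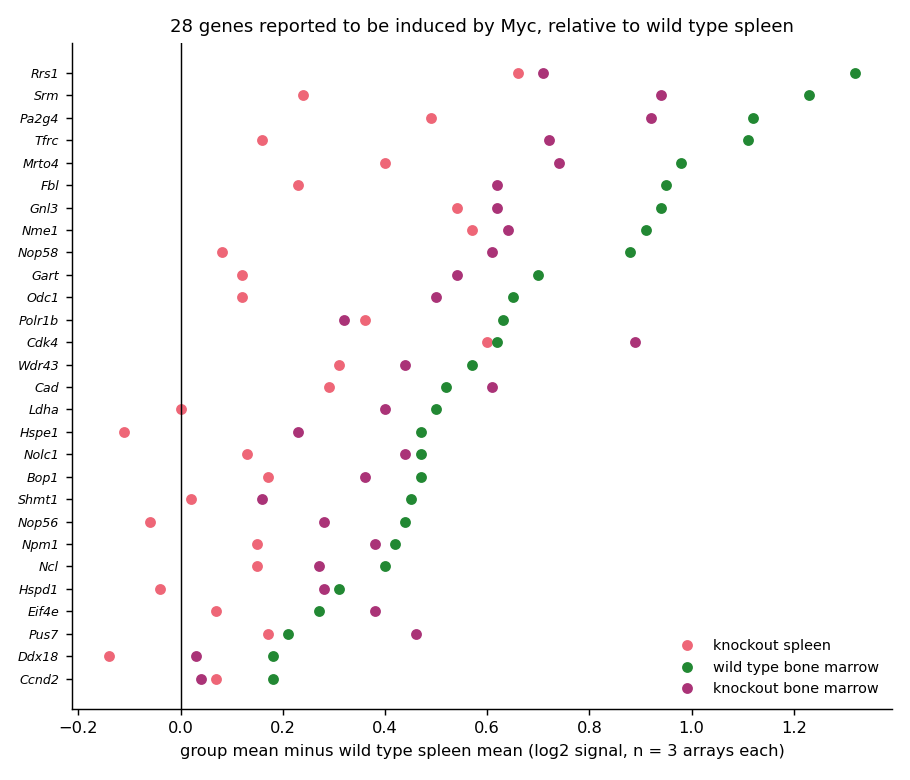
Mean log2 signal of 28 genes reported to be induced by Myc in KO spleen, WT bone marrow and KO bone marrow, each minus the mean in WT spleen (horizontal axis, n = 3 arrays per group), ordered by the WT bone marrow value. WT bone marrow is farthest to the right for most genes.

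Of 15 tested transporters of amino acids or small peptides outside the 8, 2 rose and 1 fell in KO spleen, and 1 rose in KO bone marrow. Of all tested genes 5.48% were called higher and 3.63% lower in KO spleen, and 3.92% and 4.73% in KO bone marrow. Slc16a10, a carrier of aromatic amino acids (TAT1), rose in both tissues. It was 4.90, 5.34 and 5.05 in WT spleen and 6.73, 6.89 and 6.76 in KO spleen, a rise of 1.72 ± 0.13 (limma, adjusted p = 1.45e-05). In bone marrow it was 5.69, 5.51 and 5.39 in WT and 7.01, 7.09 and 6.88 in KO, a rise of 1.41 ± 0.15 (adjusted p = 0.000122). The genotypes did not overlap in either tissue. The WT means were 5.10 and 5.53 and the filter on the mean of all arrays was 5.49, so the gene passed it through the KO groups and the size of its rise at so low a signal is uncertain. Slc36a4, an amino acid carrier, rose by 0.62 ± 0.18 in KO spleen (adjusted p = 0.0484), and Slc38a6, an orphan relative of Slc38a1, had a difference of -0.43 ± 0.12 (adjusted p = 0.0498). The WT spleen mean of Slc36a4, 5.15, was under the filter level. These 2 calls held in 5 and 4 of 23 alternative fits.

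Of 35 tested genes of mTORC1 and its amino acid sensing arm, 5 rose and 1 fell in KO spleen, and 3 rose and none fell in KO bone marrow. Of all tested genes 5.48% were called higher and 3.63% lower in KO spleen, and 3.92% and 4.73% in KO bone marrow. Sesn1 and Sesn3, sestrins that hold mTORC1 back, rose by 0.74 ± 0.12 (limma, adjusted p = 0.00303) and 0.62 ± 0.12 (adjusted p = 0.00639) in spleen. They rose by 0.63 ± 0.14 (adjusted p = 0.0157) and 0.72 ± 0.13 (adjusted p = 0.00627) in bone marrow. Sesn1 was 9.28, 9.13 and 9.01 in WT spleen and 10.11, 9.70 and 9.78 in KO spleen, with no overlap. Rraga, a GTPase that brings mTORC1 to the lysosome, rose by 0.61 ± 0.13 in spleen (adjusted p = 0.0112). Lamtor4, part of its lysosomal anchor, rose by 0.53 ± 0.12 in spleen (adjusted p = 0.0155) and 0.54 ± 0.13 in bone marrow (adjusted p = 0.027). The other 2 spleen calls, outside the naming rule, were Rheb, which activates mTORC1, at 0.46 ± 0.11 (adjusted p = 0.0209), and Depdc5, part of an inhibitory complex, at -0.40 ± 0.11 (adjusted p = 0.0398). The genes that rose so included some that act for mTORC1 and some that act against it.

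Of 19 tested genes of the amino acid shortage response, which the factor ATF4 drives, 2 rose in KO spleen, Psat1, an enzyme of serine synthesis, by 0.69 ± 0.17 (limma, adjusted p = 0.0246) and Shmt2, a mitochondrial enzyme of serine use, by 0.48 ± 0.13 (adjusted p = 0.0454). Of all genes 5.48% were called higher in KO spleen, 4.73% lower in KO bone marrow and 4.34% higher in bone marrow between WT tissues. In KO bone marrow 2 other genes of the list fell. Ppp1r15a (GADD34), which ends the translational block of that response, had a difference of -1.34 ± 0.29 (adjusted p = 0.0142), and Atf4 itself one of -0.56 ± 0.13 (adjusted p = 0.0218). Between WT tissues 4 rose in bone marrow, Phgdh by 1.07 ± 0.19, Shmt2 by 1.06 ± 0.13, Psat1 by 1.00 ± 0.17 and Mthfd2 by 0.59 ± 0.15 (adjusted p = 0.00939, 0.00172, 0.00787 and 0.038 in limma). The Shmt2 call in spleen held in 8 of 24 alternative fits and that of Mthfd2 in 9.

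Of 18 cytosolic aminoacyl-tRNA synthetases, which load amino acids onto tRNA, 3 rose in KO spleen and none fell. Tars rose by 0.80 ± 0.11 (limma, adjusted p = 0.00105), from 7.43, 7.23 and 7.27 to 8.28, 7.91 and 8.10, and kept its call in all 24 alternative fits. Iars rose by 0.69 ± 0.13 (adjusted p = 0.00502) and Vars by 0.46 ± 0.12 (adjusted p = 0.0267). In KO bone marrow only Wars rose, by 0.53 ± 0.14 (adjusted p = 0.0419), a call that held in 9 of 24 alternative fits. Between WT tissues 5 rose in bone marrow, led by Iars at 0.78 ± 0.13, Tars at 0.68 ± 0.11, Farsb at 0.60 ± 0.12 and Vars at 0.48 ± 0.12 (adjusted p = 0.00634, 0.00773, 0.0171 and 0.0359 in limma). Of 12 enzymes of glutamine and branched-chain amino acids, Got2, the mitochondrial aspartate transaminase, rose by 0.54 ± 0.12 in KO spleen (adjusted p = 0.0123), and Glul, glutamine synthetase, had a difference of -0.81 ± 0.20 in KO bone marrow (adjusted p = 0.0312). Of 15 other nutrient carriers, Slc25a5, the mitochondrial ADP/ATP carrier, rose by 0.62 ± 0.10 in KO spleen (adjusted p = 0.00251) and by 0.58 ± 0.10 between WT tissues (adjusted p = 0.00855), as did the nucleoside carrier Slc29a1, by 0.61 ± 0.13 (adjusted p = 0.0198). Of all tested genes 5.48% were called higher and 3.63% lower in KO spleen, and 3.92% and 4.73% in KO bone marrow. Between WT tissues 4.34% were called higher in bone marrow and 1.04% lower.

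Over the 8 pathway lists together, 22 of 152 tested genes passed in spleen, 20 of them higher in KO. That is 14.5%, against 9.11% of all tested genes. The lists were chosen with earlier results of these data known, so this share and those below are a description and no test of enrichment. In bone marrow 11 passed, 6 higher and 5 lower, which is 7.24% against 8.65% of all tested genes. Of these genes, 6 were called in both tissues, which is 27.3% of the spleen calls and 54.5% of the bone marrow calls. The matching share over all tested genes is not given here, so nothing is read from this overlap. Lamtor4, Mxd4, Sesn1, Sesn3 and Slc16a10 rose in both, and Gnl3 took opposite directions. Slc16a10 passed the filter through the KO groups, so its place in these counts rests on a low WT signal. The WT spleen mean of Slc36a4, counted in spleen, was also under the filter level. Between WT tissues 31 passed, all higher in bone marrow, which is 20.4% against 5.37% of all tested genes. None of the 152 passed for the difference between the genotype effects, with 29 at an unadjusted p under 0.05 in limma, or between KO tissues, with 14. Of all tested genes, 9.13% and 9.25% had an unadjusted p under 0.05 in the same order. With the granulocyte level as a covariate 6 of 152 passed in spleen, 2 in bone marrow and 0 between WT tissues, where no tested gene at all passed.

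The genes most like Myc over the 12 arrays were Psma7, a proteasome subunit (Pearson r = 0.98), Eif4a1, the translation initiation helicase (0.969), Rps27l (0.958), Ccnh (0.946) and Cpsf2 (0.945). Eif4a1 averaged 10.61 in WT spleen, 11.21 in KO spleen, 11.19 in WT bone marrow and 11.38 in KO bone marrow, the same order as Myc except that KO spleen and WT bone marrow, level in Myc, changed places. The genes most like Slc7a5 were Nsun2, an RNA methyltransferase (0.954), Nme1 (0.945), Gnl3 (0.94), Rcc2 (0.936) and Ctps, CTP synthase (0.933). Nme1 and Gnl3 also belong to the list of genes reported to be induced by Myc. These correlations describe 12 arrays in 4 groups that share normalization, and they were ranked over all tested genes.

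RefSeq promoter windows (GRCm38.p6, 250 bases before to 50 after a start) were at hand for 4 of the 8 genes, 6 windows in all, of Slc7a1, Slc7a6, Slc38a2 and Slc3a2. The palindromic motif CACGTG, which reads alike on both strands, was in 0 of the 6 and in 7.15% of 32851 windows of the same length. These letters not being in this window says nothing of binding by Myc.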

How the data were processed

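Gene expression was measured in 12 arrays. Each deposited value is a probe set's log2 signal, made by the authors with Affymetrix Expression Console and RMA, per the submitters' processing notes; RMA corrects background, normalizes quantiles and summarises probes. Their versions are not stated in the labels. The platform annotation gave 1 symbol for 21789 of 35556 probe sets, several for 1621 and none for 12146, and only the first kind was named. The probe set with the highest mean stood for a gene, and genes whose mean exceeded the 40th percentile (5.49) were tested.

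limma 3.58.1 (R 4.3.3) fitted a mean for each of 4 groups plus array run, with eBayes (7 residual and 4.74 prior degrees of freedom), two-sided, Benjamini-Hochberg adjusted over 11963 genes and called under 0.05. The run itself was called for 0 genes in limma, with 546 at an unadjusted p under 0.05. The fit was tested on simulated data. Arrays have no read depth, so their number limits the precision, and p-values measure the spread between arrays called biological replicates.

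The 8 genes and all lists were chosen with earlier results of these data known. From each pathway list and comparison, up to 4 called genes with the largest differences were named, and the 5 genes most correlated with Myc and with Slc7a5. Counts of listed genes are over calls adjusted across all genes. B cell, monocyte and dendritic cell, and erythroid markers were also listed: of 7, 15 and 6 measured, 5, 7 and 5 were above the filter. Alternatives covered run, filter, scaling, variance moderation, a replicate block, 2 marker covariates, probe set choice and each array left out.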

Additional observations from a re-analysis of the deposited data

Results flagged for a closer look

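For 5 pathway genes the KO arrays lay wholly above the WT arrays in spleen and wholly below them in bone marrow. They are 3.29% of the 152 pathway genes tested, and 64 of all 11963 tested genes (0.535%) showed this pattern. The effect in bone marrow minus that in spleen was -1.31 for Rrs1, -1.09 for Gnl3, -0.88 for Shmt2, -0.76 for Mrto4 and -0.28 for Ncl on the log2 scale. The difference between tissues was tested in limma and none passed after adjustment (adjusted p = 0.31, 0.0916, 0.255, 0.242 and 0.602, in the same order). All but Shmt2 are on the list of genes reported to be induced by Myc. The granulocyte marker level moved with them, at 5.79 to 6.40 in WT spleen, 6.31 to 7.07 in KO spleen, 6.68 to 7.49 in KO bone marrow and 8.0 to 8.41 in WT bone marrow, and its part was not tested.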

How the results depend on the processing

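Among the 8 genes, 890 of the alternative values lay within the spread between replicates and 62 did not. No called value changed sign, but the 8 were chosen from these same arrays, so no support for them is read from this. The granulocyte level did not overlap between the bone marrow genotypes or the WT tissues, and it overlapped little between the spleen genotypes. As a covariate it could therefore hardly be told from these contrasts. With the granulocyte level as a covariate the genes called became 334 (from 1090) in spleen, 95 (from 1035) in bone marrow, 0 (from 643) between WT tissues and 0 (from 1) for the difference of effects. Pathway genes became 6, 2 and 0 (from 22, 11 and 31), and members 1, 0 and 0 (from 2, 2 and 3). With the cell cycle level they became 9 genes, 0 pathway genes and 1 member between WT tissues, 6 pathway genes and 1 member in bone marrow, and 0 genes for the difference of effects. With no run, 1590 genes and 1 member were called in bone marrow, 2 genes for the difference, and 87 genes and 1 pathway gene between KO tissues (from 38 and 0). Fitted on its own 6 arrays, each tissue called 1 member, as did a second quantile normalization in bone marrow. The difference of effects was called for 0 genes with a filter at the 60th percentile, and for 3 genes and 1 member with trend and robust moderation.

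The labels do not say whether same-numbered arrays share a mouse. Deviations correlated at -0.02 to 0.24 between same-numbered arrays and -0.22 to 0.07 between others. They were positive in 16 of 18 same-numbered pairs and in 8 of 36 other pairs. No pairing was assumed in the main fit, so the differences above take no account of mice that arrays may share. With a replicate block the difference of effects was called for 5 genes and 1 member, and no other count moved by over 1.5 times.

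Leaving out 1 array gave 546 to 1083 genes, 11 to 24 pathway genes and 2 to 3 members in spleen, lowest without WT spleen 3. It gave 371 to 1006, 3 to 13 and 0 to 2 in bone marrow and 82 to 702, 9 to 33 and 2 to 3 between WT tissues, lowest without WT bone marrow 1 in both. It gave 0 to 5 genes and 0 to 1 member for the difference and 1 to 38 genes between KO tissues, lowest without KO spleen 3. Subtracting array medians or repeating quantile normalization changed the share of higher calls from 45.3% to 30.8% or 57.3% in bone marrow and from 80.7% to 90.7% or 65.1% between WT tissues.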

Other observations

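Of the 7 tested monocyte and dendritic cell markers, 4 rose and 2 fell in KO spleen. Of all tested genes 5.48% were called higher and 3.63% lower there. The antigen presentation genes H2-Aa, Cd74 and H2-Ab1 rose by 2.00 ± 0.33, 1.69 ± 0.38 and 1.66 ± 0.20 (limma, adjusted p = 0.00247, 0.016 and 0.000268), and the integrin gene Itgax by 1.36 ± 0.11 (adjusted p = 2.16e-05). The chemokine receptor gene Ccr2 and Ms4a6c had differences of -1.33 ± 0.12 and -1.29 ± 0.17 (adjusted p = 4.58e-05 and 0.000625). In KO bone marrow Itgax rose by 1.46 ± 0.12 (adjusted p = 3.1e-05), and no other gene of the list passed. There 3.92% of all tested genes were called higher and 4.73% lower.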
